A study of Homo sapiens with 6 samples.

Results

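Vertebrate cells recognise foreign or misplaced nucleic acid with a small set of proteins, and the mRNAs of 9 of these were examined after PAX9 depletion. The 9 genes were chosen by symbol and are the cytosolic double-stranded RNA helicases DDX58 (RIG-I), IFIH1 (MDA5) and DHX58 (LGP2), the endosomal RNA receptor TLR3, the RNA-activated kinase EIF2AK2 (PKR), the mitochondrial adaptor MAVS, the RNA editing enzyme ADAR, and the DNA-sensing proteins MB21D1 (cGAS) and TMEM173 (STING). All 9 were found among the 26822 gene symbols of the deposited table, each at 1 locus that carried no other symbol. Of the 9, 8 had a mean FPKM of at least 1 over the 2 groups, and DHX58 did not. FPKM corrects the fragment number of a transcript for its length and for the size of the library, so levels of different genes can be set side by side.

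The cells were of the established line MCF10A, which derives from human breast epithelium and is not tumorigenic. They were transfected with 30 nM of non-targeting siRNAs (siNT) or of siRNAs against PAX9 (siPAX9) and harvested at 72 hours, with 3 samples in each group that nothing states to be separate cultures. The groups share the cell line and the lipid reagent used for transfection. They also share the medium with horse serum, epidermal growth factor, hydrocortisone, cholera toxin and insulin. There was no group without siRNA, and an effect of PAX9 loss cannot be told apart from an effect of the siRNAs themselves. The deposited table gives 1 pooled FPKM per group, the authors' own value, and the columns of their own test were not used, so every number below stands without an SD or a test and no difference is set here against the spread between samples.

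RIG-I and MDA5 bind double-stranded RNA in the cytosol and signal through MAVS, which recruits kinases that activate the transcription factors IRF3 and IRF7. LGP2 lacks the signalling domain of its relatives and modulates them. TLR3 reads RNA in endosomes through the adaptor TICAM1. PKR is turned on by double-stranded RNA and phosphorylates the translation initiation factor eIF2 alpha, while ADAR converts adenosine to inosine in such RNA and thereby limits its recognition. In the DNA branch cGAS makes a cyclic dinucleotide that STING binds. Many of these genes are themselves induced by interferon, through response elements in their promoters.

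PAX9 itself stood at 2.80 FPKM with siNT and at 0.325 FPKM with siPAX9, 8.60-fold lower, which goes with the labels. The deposited PAX9 locus overlaps those of SLC25A21, SLC25A21-AS1 and MIR4503. Among the 13264 genes with a mean FPKM of at least 1, the median log2 ratio of siPAX9 to siNT was -0.07. With genes listed at 0 in a group left out, 5% of the rest were under -1.13 and 5% over 1.18. The epithelial markers KRT5 (1558 FPKM in siNT and 1807 in siPAX9) and KRT17 (1718 and 2088) were abundant in both groups. Of the other 5 epithelial markers listed, CDH1 was 2.74-fold higher in siPAX9 (45.3 and 124.4) and EPCAM was 2.05-fold lower (34.3 and 16.7). KRT14 (31.4 and 40.9), TP63 (35.4 and 25.3) and LAMB3 (138.8 and 123.6) were within 2-fold.

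The promoters of the sensors are shown first, because several of the mRNAs below are classical interferon targets. The RefSeq promoter table, made on GRCh38.p14, held a window of 250 bases before to 50 bases after the start for 6 of the 9 genes, and DHX58, TMEM173 and MB21D1 were not matched. Each of the 6 windows was found at a single place in GRCh37 near its deposited locus, and places further away were not searched. The coordinates of GRCh37 are those of the UCSC hg19 build of the deposited table. The interferon-stimulated response element was searched on both strands as GAAANNGAAA. After the sequences had been seen, the same element with a spacer of 1 base, GAAANGAAA, was added. Capitals mark the matches in the 4 windows that hold one, each written 5′ to 3′ on the strand of the gene, and matches may overlap.

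DDX58 (chr9:32526145-32526444, minus strand): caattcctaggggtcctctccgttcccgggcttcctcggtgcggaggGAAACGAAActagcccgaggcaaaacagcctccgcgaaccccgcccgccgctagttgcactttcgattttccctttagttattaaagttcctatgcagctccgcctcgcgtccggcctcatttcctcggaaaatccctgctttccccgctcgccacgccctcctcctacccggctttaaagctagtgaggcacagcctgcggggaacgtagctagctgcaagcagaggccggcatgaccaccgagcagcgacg

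IFIH1 (chr2:163175145-163175444, minus strand): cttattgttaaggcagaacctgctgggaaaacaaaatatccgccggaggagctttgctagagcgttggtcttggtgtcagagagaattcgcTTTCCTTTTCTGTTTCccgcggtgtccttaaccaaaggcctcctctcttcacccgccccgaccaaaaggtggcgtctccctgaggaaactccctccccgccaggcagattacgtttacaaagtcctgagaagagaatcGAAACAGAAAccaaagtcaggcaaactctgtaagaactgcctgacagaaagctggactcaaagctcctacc

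EIF2AK2 (chr2:37384074-37384373, minus strand): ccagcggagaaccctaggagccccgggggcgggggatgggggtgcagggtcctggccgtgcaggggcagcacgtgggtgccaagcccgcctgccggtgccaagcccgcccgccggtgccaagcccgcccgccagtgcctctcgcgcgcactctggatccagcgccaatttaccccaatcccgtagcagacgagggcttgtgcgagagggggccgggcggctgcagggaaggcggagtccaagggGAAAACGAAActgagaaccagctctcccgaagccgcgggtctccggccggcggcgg

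TLR3 (chr4:186990060-186990359, plus strand): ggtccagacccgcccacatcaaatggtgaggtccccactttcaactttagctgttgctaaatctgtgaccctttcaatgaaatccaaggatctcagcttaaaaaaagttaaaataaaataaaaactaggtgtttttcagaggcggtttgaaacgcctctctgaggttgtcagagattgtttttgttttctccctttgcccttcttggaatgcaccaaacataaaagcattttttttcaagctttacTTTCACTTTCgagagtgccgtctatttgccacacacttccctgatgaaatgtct

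The element with the 2-base spacer was present in the windows of IFIH1, EIF2AK2 and TLR3, that is in 3 of the 6 members matched, and in 3.57% of the 35116 promoters of the table. IFIH1 held 3 matches, of which the pair that begins at -159 and -153 overlaps and lies on the opposite strand, and the last begins at -21. The match of EIF2AK2 began at -6 and that of TLR3 at -4, so each spans the RefSeq start. DDX58 held only the form with the 1-base spacer, at -203, which occurs in 3.12% of all promoters. The windows of ADAR and MAVS held neither set of letters. Each window shows a single start. That of ADAR, at 154600473, lies 17 bases upstream of the deposited locus, so its window says nothing of the other starts of this gene. The starts of the other genes lie inside their loci. The distance is 128 bases for DDX58, 67 for EIF2AK2, 35 for MAVS, 24 for IFIH1 and 1 for TLR3. Positions are counted from the RefSeq start and not from the end of the locus. A match describes the sequence and was not tested for binding.

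**Figure D1:**
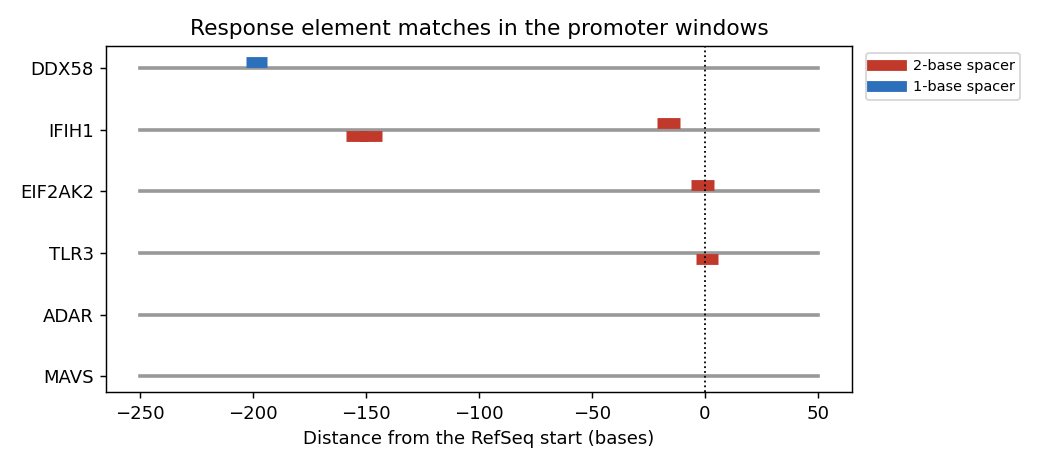
Positions of response element matches in the promoter windows of 6 sensor genes, with the distance from the RefSeq start in bases on the horizontal axis and 1 line per gene. Blocks above a line lie on the strand of the gene and blocks below it on the opposite strand. IFIH1, EIF2AK2 and TLR3 hold the form with the 2-base spacer, DDX58 that with the 1-base spacer, and the single windows taken for ADAR and MAVS neither.

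All 3 RIG-I-like receptors, PKR, ADAR, MAVS and TLR3 had higher FPKM in siPAX9, MAVS and TLR3 by little (ratios of 1.14 and 1.12), and cGAS and STING had lower FPKM. Among members with a mean FPKM of at least 1, 6 of 8 had a log2 ratio above 0, as had 5926 of the 13264 genes. Of the 8 members with a mean FPKM of at least 1, 1 was higher by 2-fold or more (DDX58) and 1 was lower by 2-fold or more (TMEM173). Over all genes, 6.82% were higher and 6.90% lower by that much. At 1.5-fold, 3 members were higher (DDX58, IFIH1 and EIF2AK2) and 2 were lower (TMEM173 and MB21D1), against 13.7% and 16.7% of all genes. The median log2 ratio of the 8 members was 0.34. In such bulk samples fewer cells of a type and less RNA per cell cannot be told apart.

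**Figure D2:**
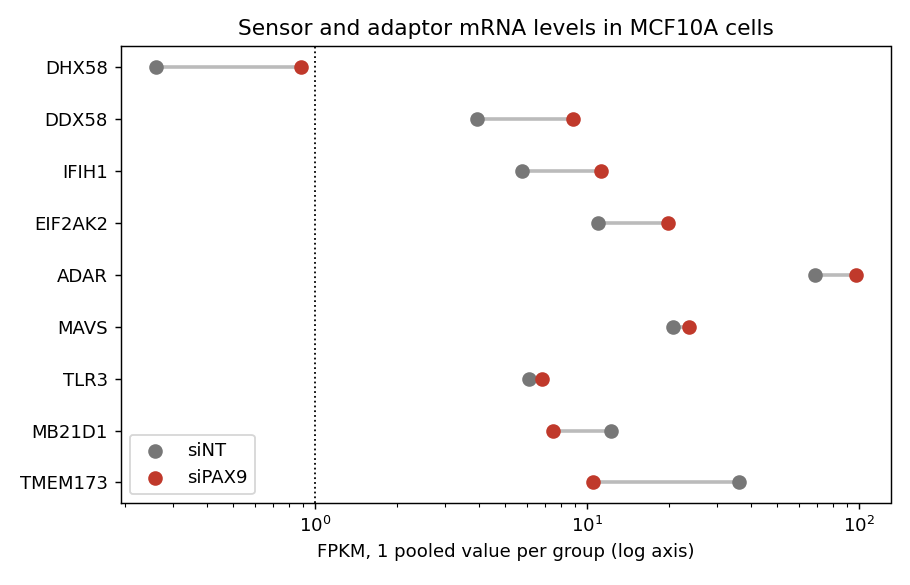
FPKM of the 9 members on a log axis, 1 pooled value per group as deposited, with siNT in grey and siPAX9 in red. Of the genes drawn, 7 have the red point to the right of the grey one, while MB21D1 and TMEM173 have it to the left. The dotted line marks an FPKM of 1, under which DHX58 lies in both groups.

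DDX58, at chromosome 9 from 32455300 to 32526322 (hg19), stood at 3.92 FPKM in siNT and 8.85 FPKM in siPAX9, which is 2.25-fold higher. It was just past the 2-fold mark, with a log2 ratio of 1.17 that lay at percentile 94.5 of all genes with a mean FPKM of at least 1. With 1 added to each FPKM the log2 ratio was 0.9995, and DDX58 no longer counted as higher. RIG-I prefers short RNA with a 5′ triphosphate end.

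IFIH1, at chromosome 2 from 163123589 to 163175218, stood at 5.77 FPKM in siNT and 11.2 FPKM in siPAX9. Its ratio of 1.94 was just short of 2-fold, and its log2 ratio of 0.96 was at percentile 92.8. MDA5 forms filaments on long double-stranded RNA, and in these cells its mRNA was 1.47 times as abundant as that of RIG-I in siNT and 1.27 times in siPAX9.

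DHX58, at chromosome 17 from 40253422 to 40264751, was the scarcest member, at 0.259 FPKM in siNT and 0.884 FPKM in siPAX9. The ratio was 3.42, the highest of the 9, but both levels were under 1 and DHX58 was left out of the counts above. With 1 added to each FPKM its log2 ratio went from 1.77 to 0.58. Summed over the 3 RIG-I-like receptors, the level was 9.96 FPKM in siNT and 20.9 FPKM in siPAX9.

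EIF2AK2 stood at 10.9 FPKM in siNT and 19.8 FPKM in siPAX9, 1.81-fold higher, at percentile 91.5. Its deposited locus, on chromosome 2 from 37311594 to 37384190, overlaps that of GPATCH11, which stood at 2.99 FPKM in siNT and 3.52 FPKM in siPAX9, a ratio of 1.18 in the deposited table. Whether reads were shared between the neighbours was not tested.

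ADAR was the most abundant member in both groups. Its locus on chromosome 1 from 154554512 to 154600456 gave 68.5 FPKM in siNT and 96.8 FPKM in siPAX9, 1.41-fold higher. The difference of 28.3 FPKM was the largest among the members, although the log2 ratio was only 0.50. The table does not separate the constitutive nuclear form of ADAR from the interferon-induced long form. ADAR mRNA was 6.26 times as abundant as that of PKR in siNT and 4.89 times in siPAX9.

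MAVS (chromosome 20, 3827446 to 3856770) and TLR3 (chromosome 4, 186990309 to 187007897) were nearest to no difference. MAVS gave 20.7 FPKM in siNT and 23.6 FPKM in siPAX9, a ratio of 1.14. TLR3 gave 6.12 FPKM in siNT and 6.83 FPKM in siPAX9, a ratio of 1.12. The window of TLR3 holds the same response element letters as those of IFIH1 and EIF2AK2, whose ratios were 1.94 and 1.81. The adaptor MAVS was 5.26 times as abundant as DDX58 in siNT and 2.67 times in siPAX9.

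TMEM173 showed the largest ratio in either direction among members over the FPKM limit. The locus, on chromosome 5 from 138855107 to 138862375, gave 36.1 FPKM in siNT and 10.5 FPKM in siPAX9, which is 3.44-fold lower. Its log2 ratio of -1.78 lay at percentile 1.95 of all genes. STING is a membrane protein of the endoplasmic reticulum on which signals from cytosolic DNA converge.

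MB21D1, at chromosome 6 from 74133285 to 74162211, stood at 12.2 FPKM in siNT and 7.49 FPKM in siPAX9, 1.64-fold lower, at percentile 13.0. The mRNAs of both proteins of the DNA branch were lower, that of MB21D1 by less than 2-fold. Their summed level was 48.3 FPKM in siNT and 18.0 FPKM in siPAX9, whereas that of the 5 RNA sensors (the RIG-I-like receptors, TLR3 and PKR) was 27.0 and 47.6. The level of STING mRNA was 2.95 times that of cGAS in siNT and 1.40 times in siPAX9.

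**Figure D3:**
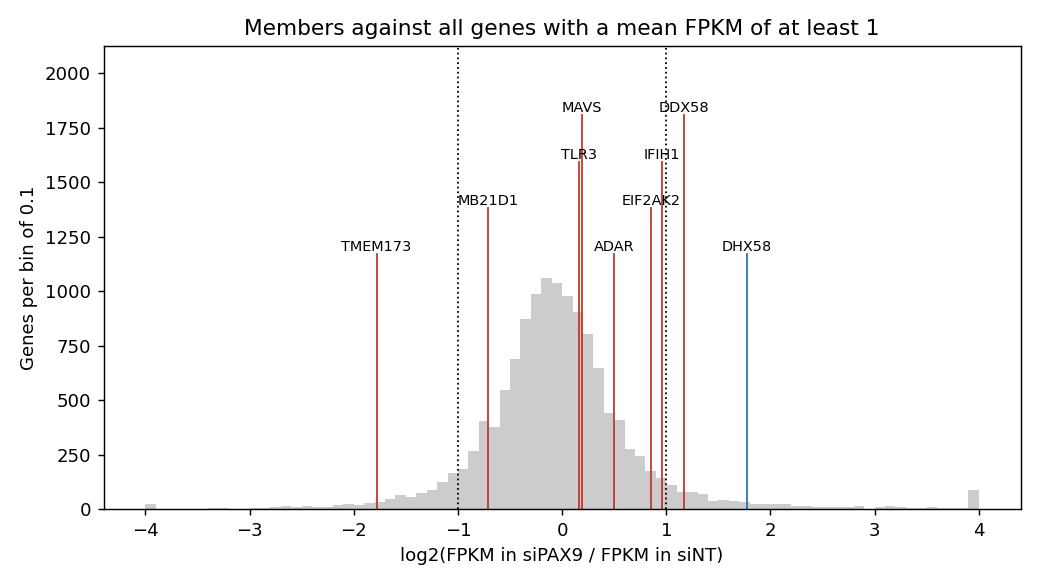
Log2 ratio of siPAX9 to siNT for all genes with a mean FPKM of at least 1 (grey bars, genes per bin of 0.1, values past 4 placed in the outer bins, genes listed at 0 in a group left out) and for the 9 members (lines). Dotted lines mark 2-fold. DDX58 and DHX58 (blue, mean FPKM under 1) lie past the upper line and TMEM173 past the lower one, and IFIH1 at 0.96 lies just inside.

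The order of the levels was not the same in the groups. In siNT it ran from ADAR (68.5) through TMEM173 (36.1), MAVS (20.7), MB21D1 (12.2), EIF2AK2 (10.9), TLR3 (6.12), IFIH1 (5.77) and DDX58 (3.92) to DHX58 (0.259). In siPAX9 TMEM173 went from rank 2 to rank 5 and MB21D1 from rank 4 to rank 7, while EIF2AK2 took rank 3 and IFIH1 rank 4. Several neighbours were close. TLR3 exceeded IFIH1 by a factor of 1.06 in siNT, and IFIH1 exceeded TMEM173 by a factor of 1.07 in siPAX9, and without values per sample such places in the order cannot be separated. STING mRNA was 9.20 times that of RIG-I in siNT and 1.19 times in siPAX9, and cGAS went from 3.12 times to 0.846 times the level of RIG-I.

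The genes that act with the sensors were described by lists. Of 22 listed adaptors and kinases downstream of the sensors, 20 had a mean FPKM of at least 1, of which 1 was higher and 0 were lower by 2-fold or more, with a median log2 ratio of 0.00. The share higher was 5.00%, against 6.82% of all genes, and the absence of lower genes, against 6.90%, is a difference of few genes in a list of this size. IRF7, a transcription factor that is itself induced by interferon, stood at 1.73 FPKM in siNT and 8.28 FPKM in siPAX9, 4.78-fold higher. Its constitutive relative IRF3 had 22.3 and 23.1. The kinase TBK1, which phosphorylates both, had 16.3 and 17.3. TICAM1, the adaptor of TLR3, had 10.9 and 20.4, a ratio of 1.88.

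Among 25 listed regulators of the RIG-I-like receptors, 22 had a mean FPKM of at least 1, and their median was -0.08. Only CYLD (8.65 in siNT and 17.8 in siPAX9), a deubiquitinase that restrains RIG-I, was higher by 2-fold or more. Only RNF125 (3.97 and 1.26), a ubiquitin ligase that sends RIG-I for degradation, was lower by that much. Each is 4.55% of the list, against 6.82% and 6.90% of all genes. The mRNA of TRIM25, a ubiquitin ligase that activates RIG-I, stood at 50.8 in siNT and 46.5 in siPAX9, at a locus shared with MIR3614.

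All 22 listed partners of PKR and of RNA editing had a mean FPKM of at least 1, and their median was -0.14. Of these 0 were higher and 0 lower by 2-fold or more, against 6.82% and 6.90% of all genes, a difference of few genes in a list of this size. The PKR activator PRKRA had 29.9 FPKM in siNT and 24.3 in siPAX9. EIF2S1, which encodes the PKR substrate, had 29.6 and 32.4. The value nearest to 2-fold was that of ADARB1, the other catalytically active deaminase of the family, which had 7.26 in siNT and 3.69 in siPAX9, a log2 ratio of -0.98 against 0.50 for ADAR.

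Of the 20 regulators of cGAS and STING, 19 had a mean FPKM of at least 1, and the median was -0.17. Of these 19, 1 was higher and 3 lower by 2-fold or more (5.26% and 15.8%, against 6.82% and 6.90% of all genes). The share lower differs from that of all genes by few genes in a list of this size. RNASEH2A stood at 11.8 FPKM in siNT and 3.96 FPKM in siPAX9, 2.98-fold lower, and RNASEH2B had 10.9 and 5.09, 2.13-fold lower. They encode subunits of RNase H2, which removes ribonucleotides from DNA. The gene of another subunit, RNASEH2C, had 7.96 in siNT and 10.6 in siPAX9, 1.33-fold higher. STIM1, a calcium sensor that retains STING at the endoplasmic reticulum, had 26.7 and 12.6. ZDHHC1, a palmitoyltransferase, had 0.870 in siNT and 1.87 in siPAX9 and was the gene past 2-fold in the other direction. The exonuclease TREX1, which degrades cytosolic DNA, had 7.74 and 6.69 at a locus shared with ATRIP.

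Among 21 other nucleic acid sensors, 16 had a mean FPKM of at least 1, and their median was 0.05. Of these, 3 (18.8%) were higher and 1 (6.25%) was lower by 2-fold or more, against 6.82% and 6.90% of all genes. The share higher differs from that of all genes by few genes in a list of this size. The helicase DDX60 had 1.11 in siNT and 6.73 in siPAX9, 6.04-fold higher. The oligoadenylate synthetases make the activator of RNase L when they bind double-stranded RNA. Of these, OAS2 (0.574 in siNT and 6.05 in siPAX9) and OAS3 (19.7 and 47.0) were past 2-fold, and OAS1 (20.0 and 39.2) was just short of it. NLRP1, an inflammasome sensor, had 1.38 and 0.684. IFI16, a DNA sensor that works with STING, was abundant and 1.82-fold lower, with 145.5 in siNT and 79.9 in siPAX9. Other endosomal receptors were near 0, with TLR7 at 0.00399 and 0.00925 and TLR9 at 0.0247 and 0.00680, and TLR8 and ZBP1 were listed at 0 in both groups.

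Interferon mRNAs were scarce in both groups. IFNB1, the interferon made directly downstream of IRF3, stood at 0.0547 FPKM in siNT and 0.0566 FPKM in siPAX9. IFNA1 had 0.152 and 0.197 and IFNK 0.0638 and 0.120. IFNA2, IFNG and IFNL3 were listed at 0 in both groups, and IFNL1 and IFNL2 were listed at 0 in siNT and had 0.0597 and 0.0735 in siPAX9. Of the 9 listed interferon genes found in the table only IFNE passed an FPKM of 1, with 1.13 and 1.36.

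Of 12 genes with a mean FPKM of at least 1 in the list of interferons, receptors and their signalling proteins, 1 was higher and 1 lower by 2-fold or more. Each is 8.33% of the list, near the 6.82% and 6.90% of all genes. IRF9, the DNA-binding part of the complex that reads the response element, had 14.0 in siNT and 29.4 in siPAX9, 2.09-fold higher, at a locus shared with RNF31. STAT2, which binds IRF9, had 11.2 and 18.2, a ratio of 1.63. The receptor chain IFNGR2 had 99.5 and 35.4, 2.81-fold lower, and the type I receptor chain IFNAR1 had 12.3 and 12.0.

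Of the 27 interferon-stimulated genes with a mean FPKM of at least 1, 16 were higher (59.3%, against 6.82% of all genes) and 2 were lower by 2-fold or more (7.41%, against 6.90%), and the median log2 ratio was 1.26. IFI44 and IFI44L share 1 locus, so counted by locus, a count added after the data had been seen, 15 of 26 were higher, as were 829 of all 12405 loci. IFI6 stood at 10.7 FPKM in siNT and 338.5 FPKM in siPAX9, IFI27 had 4.93 and 110.6, and IFIT1 had 0.571 and 12.2. MX1 had 0.170 and 2.73, and HERC6 had 0.868 and 9.24. These 5 had the largest ratios of the 27, from 10.6 to 31.5. The log2 ratio of DDX58 was 1.17, a little under the median of the list. The genes that were lower were IFITM2 (811.1 and 278.1) and IFITM3 (1353 and 630.8), and their relative IFITM1 had 74.6 and 57.4. The IFITM, IFIT and OAS genes each form families of related sequence, in which the split of reads between members is uncertain whichever way they differed. OAS1, OAS2, OAS3 and OASL are in this list and in the list of other sensors, and IFI16 is in the latter and in that of cGAS and STING regulators.

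**Figure D4:**
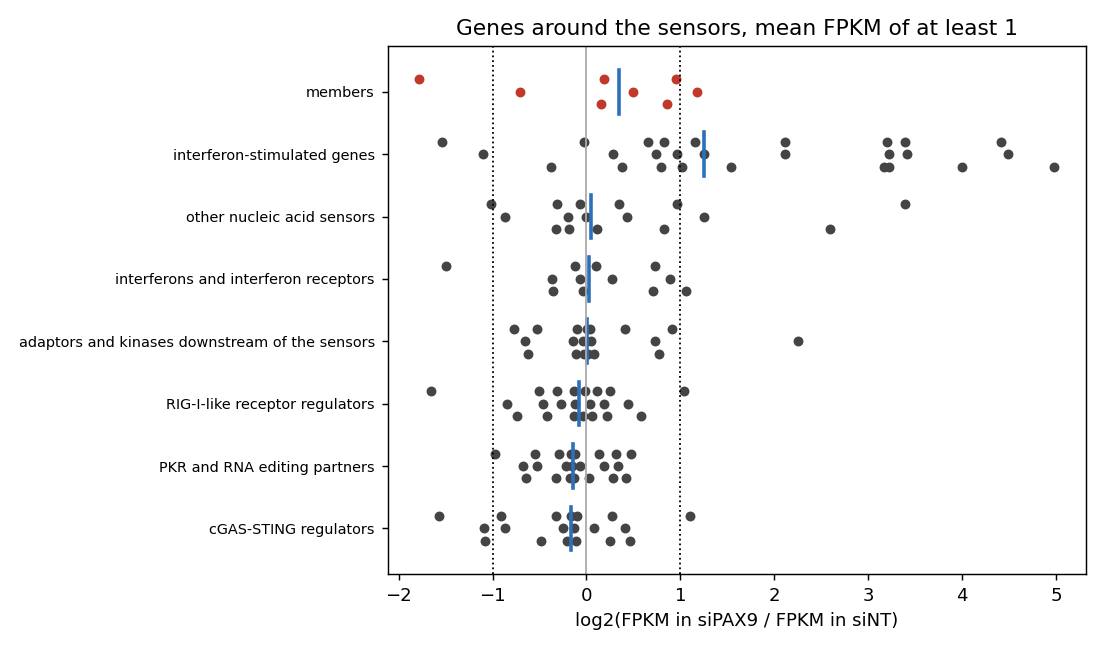
Log2 ratio of siPAX9 to siNT for the 8 members and for the genes of 7 lists, each with a mean FPKM of at least 1 (1 point per gene, spread vertically only to separate points). Blue bars are medians and dotted lines mark 2-fold. The points of the interferon-stimulated genes reach 4.98 around a median of 1.26, and the medians of the other 6 lists lie between -0.17 and 0.05.

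Markers of other cell types differed between the groups as well. The summed FPKM of 7 immune markers was 14.7 in siNT and 57.6 in siPAX9, nearly all of it CD14 (14.4 and 56.5), with PTPRC at 0.0166 and 0.0922 and CD3E and TYROBP listed at 0 in both. The 4 fibroblast markers summed to 6.38 and 42.1, most of it DCN (5.85 and 37.9) and COL1A1 (0.454 and 4.13), with COL3A1 listed at 0 in both. The 3 endothelial markers summed to 2.58 and 0.516, most of it PECAM1. Their part in the differences of the sensors was not tested.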

How the data were processed

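Poly(A)+ RNA of 3 samples per group was sequenced from 1 end. Reads were placed on the UCSC build hg19 by Bowtie 2, and Cufflinks gave transcript levels, both run by the authors within Partek Flow. The authors deposited 1 pooled FPKM per locus and group for 41656 loci, and how the libraries were scaled to each other is not given in the sources used here. The deposited table also holds 5 columns of the authors' own comparison (fold change, test statistic, p-value, q-value and a significance flag), which were not used. It gives no counts and no depth, so the precision of an FPKM is unknown.

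The gene column was split at commas, and 1 row per symbol was kept, that with the highest mean of the groups. The change is log2 of the siPAX9 FPKM over the siNT FPKM, with nothing added. A gene counted as higher or lower at a ratio of 2 in either direction with a mean FPKM of at least 1. Locus starts were raised by 1 to count from 1. Members and lists were chosen with earlier results of these data known. Of each pathway list, the genes past 2-fold (at most the 5 largest on each side) and some fixed partners are named. ADARB1, IFI16, OAS1, GPATCH11, STAT2, IFNAR1, OASL, IFITM1, RNASEH2C and the single markers were named after their values were seen. An item withheld from the text is not reported here. Row choice, ratios and calls were checked on simulated data, and the promoter search on a made-up sequence with known matches. Python 3.11.15, numpy 2.4.6, pandas 2.3.3 and matplotlib 3.10.9 were used. The alternatives were other folds, FPKM limits, an added constant, centring on the median of all genes, summed rows and loci with 1 symbol.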

Additional observations from a re-analysis of the deposited data

How the results depend on the processing

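The direction of each of the 9 members was kept with 0.1 or 1 added to each FPKM, after centring on the median of all genes and with rows of a symbol summed. At a fold of 1.5, 3 members were higher and 2 were lower, and at a fold of 4, 0 were higher and 0 lower (2.74% and 1.56% of all genes). Without a limit on the mean FPKM 2 members were higher, DHX58 being added, and so were 13.7% of all genes. After centring 2 members were higher, since IFIH1 then had a log2 ratio of 1.03, against 7.52% of all genes. With 1 added to each FPKM 0 members (4.80% of all genes) were higher, since the log2 ratio of DDX58 then was 0.9995, just under the limit. A mean FPKM of at least 5, summed rows and loci with 1 symbol gave the same counts as reported, and TMEM173 stayed past 2-fold in each setting except the fold of 4. No paired analysis was possible because the deposited table holds 1 pooled value per group, and for the same reason no replicate could be left out. No test or error was computed here, since the table gives no values per sample and the authors' own test columns were not used.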
